A study of Mus musculus with 281 samples.

Results

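The SLC26 anion exchangers measured here are 10 genes, Slc26a1 to Slc26a9 and Slc26a11, of the 47752 genes listed for single cells of the mouse stria vascularis. They were taken by name from the gene table, and all 10 were found. They were chosen with earlier results of these data known, and none of their values was used to group the cells. Their levels were compared across cell types and across the 3 genotypes of Slc26a4, with the question of whether the other members move in cells labelled Slc26a4-/-.

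SLC26 proteins are membrane transporters that exchange chloride for bicarbonate, iodide, sulfate, oxalate or other anions. Slc26a4 encodes pendrin, the chloride, iodide and bicarbonate exchanger that is lost in Pendred syndrome, and in the cochlea it lies in spindle, root and outer sulcus cells, where it secretes bicarbonate into endolymph. Slc26a5 encodes prestin, the motor protein of outer hair cells, and Slc26a7 encodes a chloride and bicarbonate transporter of kidney and stomach. Slc26a2 encodes a sulfate transporter that cartilage and other matrix-forming tissues need.

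Cells were picked one at a time with a micropipette and profiled with Smart-Seq2, which reads poly-adenylated RNA along its length. Most cells were titled WT, for wild type (called Slc26a4+/+ here), and were aged P22 to P42. There were also 40 cells labelled Slc26a4+/- aged P26 to P33 and 69 cells labelled Slc26a4-/- aged P24 to P44, all male and on a 129S6 background by the study's methods, with no other treatment given. The labels tie no cell to a mouse and the construction of the null allele is not given in the sources used here. Each genotype therefore counted as 1 sample, and no value below carries a test. An SD over cells describes cells, which are not replicates of a genotype. The median cell had 1312950 estimated counts (1848 to 7932729), and 20 Slc26a4+/+ cells had fewer than 100000. The files carry 4 run dates. Run date 1 held 52 Slc26a4+/+ cells and 1 cell labelled Slc26a4-/-, and run date 3 held 75 Slc26a4+/+ cells alone. Run date 2 held 26 Slc26a4+/+ cells and 46 cells labelled Slc26a4-/-, and run date 4 held 19, 40 and 22 cells of the 3 genotypes. Genotypes were therefore also compared within run dates 2 and 4.

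Clustering without any Slc26 gene gave cells like intermediate cells (IMC-like, 55 Slc26a4+/+, 22 Slc26a4+/- and 35 Slc26a4-/-), 34 like spindle cells (SC-like), 35 like root cells (RC-like) and 21 like marginal cells (MC-like), each named from marker genes, of which 8 of 9, 6 of 7, 6 of 6 and 7 of 7 in the same order were detected in most cells of the cluster. SC-like and RC-like cells are together called pendrin cells. A cluster of 17 cells led by Crhbp and Vmo1 was given no cell type and is called the Crhbp cluster. A last cluster of 62 cells, led by the red cell anion exchanger Slc4a1, haemoglobin genes and Mpo, is called the blood-gene cluster, and its median depth was only 410946 counts. Most of its cells also held 8 of 9 intermediate cell markers, and most Crhbp cluster cells 6 of 7 spindle cell markers. Detection alone thus did not set the named clusters apart. The share of cells scoring highest for the type was 100%, 94.1%, 97.1% and 100% in IMC-like, SC-like, RC-like and MC-like clusters. It was 45.2% in the blood-gene and 52.9% in the Crhbp cluster. Levels are given as CPM, the counts of a gene scaled to the same total in every cell.

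The sequence just before the start of Slc26a4 is shown because the genotypes concern this gene and it is the leading member of pendrin cells. Slc26a4 (ENSMUSG00000020651) lies on the minus strand at chr12:31519827-31559969 (GRCm38), and its 1 annotated transcript has 3075 bases in 21 exons. The 250 bases before its RefSeq start site lie at chr12:31559985-31560234 (GRCm38.p6, minus strand), and the capitals mark a match to TATAAA that begins 31 bases before the start.
Slc26a4: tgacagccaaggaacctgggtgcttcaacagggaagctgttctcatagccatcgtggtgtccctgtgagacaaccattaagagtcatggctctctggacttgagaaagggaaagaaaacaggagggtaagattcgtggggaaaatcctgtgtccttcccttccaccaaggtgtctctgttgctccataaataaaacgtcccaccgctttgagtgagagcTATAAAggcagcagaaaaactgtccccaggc
TATAAA or its reverse complement TTTATA stood in 12.4% of 32851 RefSeq promoters of the same length, and TATAAA on the sense strand in 7.59%. The forkhead core TGTTTA or its reverse complement TAAACA, present in 12.03% of these promoters, was not among these letters. RefSeq promoter entries matched 7 of the 10 members.

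Each member had its own distribution, from a gene with nearly all of its counts in pendrin cells to genes seen in a few scattered cells. Over the cells of all 3 genotypes, at least 10 counts of Slc26a2 were found in 85 cells (30.2% of all), of Slc26a4 in 57, of Slc26a7 in 28, of Slc26a8 in 26, of Slc26a3 in 25, of Slc26a11 in 21, of Slc26a5 in 20, of Slc26a1 in 17, of Slc26a6 in 11 and of Slc26a9 in 1. Single cells thus rarely held many members at once. The median number of members with at least 10 counts was 1 in Slc26a4+/+ pendrin, IMC-like and MC-like cells, 2 in the Crhbp cluster and 0 in the blood-gene cluster. Levels of different genes were compared per transcript length, as summed TPM. On that scale Slc26a4 ranked first in SC-like cells with a mean of 416 TPM (SD 454 over 23 cells) and in RC-like cells with 480.0 TPM (SD 690.4 over 16 cells). Slc26a2 followed there at 48.9 and 68.4 TPM, and ranked first in IMC-like cells at 29.5 TPM and in MC-like cells at 85.4 TPM. In the Crhbp cluster the order of mean TPM was Slc26a7 at 4366, Slc26a4 at 145.3 and Slc26a2 at 62.9.

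**Figure D1:**
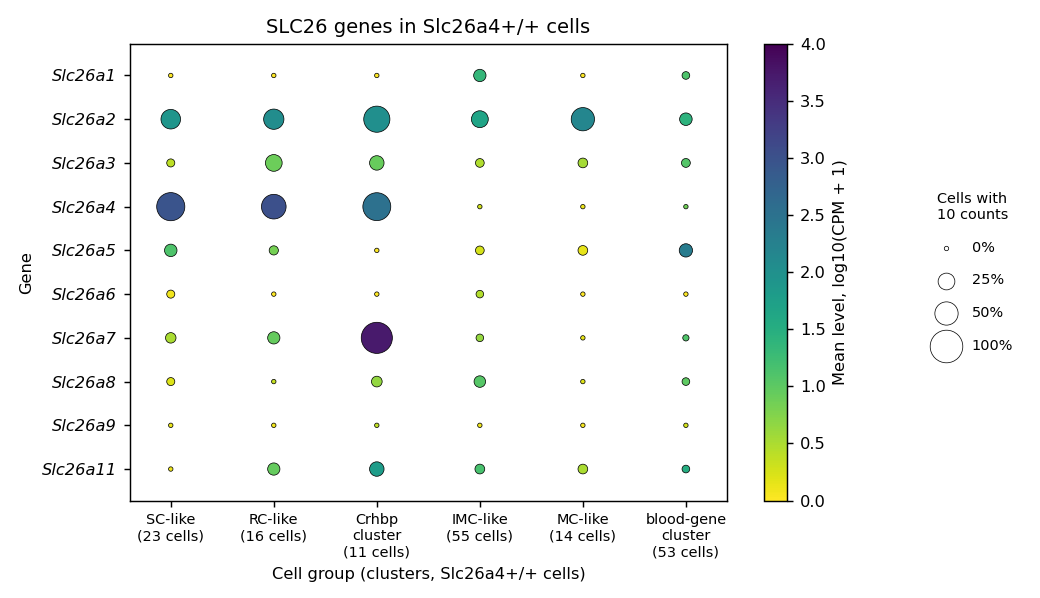
Mean level of each SLC26 gene (rows) in Slc26a4+/+ cells of each cell group (columns), with colour for log10 of mean CPM + 1 and dot area for the percentage of cells with at least 10 counts. Slc26a4 is high in SC-like, RC-like and Crhbp cluster cells, Slc26a7 in the Crhbp cluster, and Slc26a2 in each group in part of the cells.

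Slc26a4 was close to an on or off gene of pendrin cells. RC-like Slc26a4+/+ cells averaged 1050.4 CPM (SD 1458 over 16 cells), SC-like cells 912 CPM (SD 951 over 23 cells) and Crhbp cluster cells 334 CPM (SD 305 over 11 cells). The blood-gene cluster averaged 6.32 CPM, and IMC-like and MC-like cells stayed at 0.953 and 0.328 CPM. The first 2 groups in this order differed by less than the spread over their cells, and Crhbp cluster cells, with a highest value of 842 CPM, lay within the range of SC-like cells. Pendrin cells exceeded IMC-like cells by 8.96 on the log2 scale of mean CPM + 1, and of all counts of Slc26a4 in the series 96.2% lay in pendrin cells and 3.52% in the Crhbp cluster. None of 55 Slc26a4+/+ IMC-like cells had 10 counts (exact 95% interval 0 to 6.49%).

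Within pendrin cells the gene was nonetheless missing from many cells. SC-like Slc26a4+/+ cells ranged from 0 to 3586 CPM with a median of 692 CPM, and RC-like cells from 0 to 4825 CPM with a median of 259.1 CPM. At least 100 CPM was reached by 24 of 39 pendrin cells, at a mean of 1569 CPM among those, while 8 cells had no count at all. Only 4 cells lay between 10 and 100 CPM. Thinned to 100000 counts, 26 of 36 cells that were deep enough still held a count, against 2 of 55 IMC-like cells.

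Cells labelled Slc26a4-/- also held Slc26a4 RNA. The count covers the whole transcript and does not show which exons were read, so it does not check that label. SC-like cells labelled Slc26a4-/- ranged from 0 to 746 CPM with a median of 24.5 CPM over 9 cells, and the 13 RC-like cells ranged from 0 to 3959 CPM with a median of 1042 CPM. The 2 SC-like cells labelled Slc26a4+/- had 199.3 and 824 CPM, and the 6 RC-like cells ranged from 0 to 2314 CPM with a median of 1.18 CPM. High and empty cells thus occurred under every label, and the ranges overlapped. At least 100 CPM was found in 61.5% of Slc26a4+/+ pendrin cells (44.6 to 76.6%), in 4 of 8 labelled Slc26a4+/- (15.7 to 84.3%) and in 10 of 22 labelled Slc26a4-/- (45.5%, 24.4 to 67.8%), with exact 95% intervals that cover counting error only. In IMC-like cells 10 counts were reached by 1 of 22 cells labelled Slc26a4+/- and 4 of 35 labelled Slc26a4-/-, at up to 21.6 CPM. Among the pendrin cells above 100 CPM the means were 1569, 1107.2 and 1736 CPM.

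Over all pendrin cells the mean of Slc26a4 was 969 CPM in Slc26a4+/+, 554 CPM in Slc26a4+/- and 793 CPM in Slc26a4-/-, a log2 ratio of -0.29 for Slc26a4-/- over Slc26a4+/+. Within run date 2 the means were 277.8 CPM in 15 cells labelled Slc26a4-/- and 1749 CPM in 3 Slc26a4+/+ cells, a log2 ratio of -2.65. Within run date 4 they were 1898 CPM in 7 cells and 1214 CPM in 8 cells, a log2 ratio of 0.64 in the other direction. The first contrast rests on 1 RC-like Slc26a4+/+ cell with 4825 CPM, since the other 2 Slc26a4+/+ cells of that run date had 19.5 and 404 CPM. All 9 SC-like cells labelled Slc26a4-/- came from run date 2, and in SC-like cells the log2 ratio of -2.38 over all run dates became -0.28 within it. That run date held 2 Slc26a4+/+ SC-like cells. The median log2 ratio over all genes in SC-like cells was 3.26 within it, beside -0.25 over all run dates. In pendrin cells this median was 1.88 within run date 2 and 0.015 within run date 4. Both Slc26a4 ratios within run date 2 thus lay below the median of all genes. Within both run dates the ranges of the 2 genotypes overlapped.

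**Figure D2:**
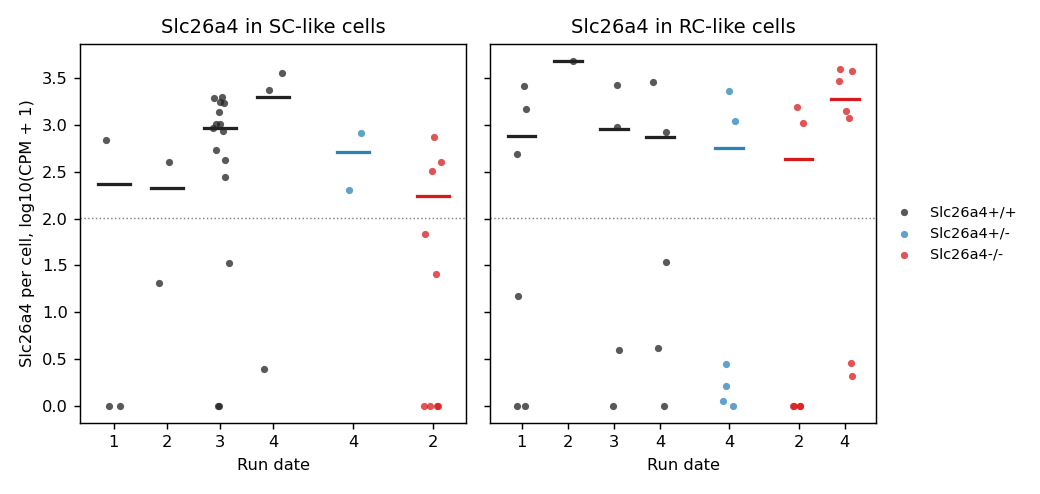
Slc26a4 in each SC-like (left) and RC-like (right) cell, as log10 of CPM + 1, by genotype (colour) and run date (horizontal axis), with a bar at the log10 of the mean CPM + 1 and a dotted line at 100 CPM. Cells at or near 0 and cells above 100 CPM stand under every genotype except for the 2 SC-like Slc26a4+/- cells, both above the line.

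The genes whose pattern over all Slc26a4+/+ cells but the 20 with fewer than 100000 counts was most like that of Slc26a4, by Pearson correlation of log2(CPM + 1) among 8675 genes, were Sfrp1 (r = 0.744), Lect1 (0.719), Arl4c (0.710), Dapk1 (0.701) and Id4 (0.679). Sfrp1 encodes a secreted Wnt antagonist and Id4 an inhibitor of DNA binding by helix-loop-helix factors. These cells share run dates and libraries, so the values describe this set of cells. Sfrp1 averaged 3239 CPM in RC-like and 413 CPM in SC-like cells, Lect1 2660.0 and 8674 CPM in the same order, and both were present in the Crhbp cluster at 712 and 10979 CPM. In IMC-like cells Sfrp1 averaged 0.867 CPM and Lect1 24.6 CPM. For Slc26a2 the highest correlation was 0.417 and no gene is named, and the other members reached 10 counts in fewer than 20 Slc26a4+/+ cells.

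Slc26a7 (ENSMUSG00000040569, minus strand, chr4:14502430-14621805) marked the Crhbp cluster. In 11 Slc26a4+/+ cells of that cluster it ranged from 37.0 to 9427 CPM with a median of 5893 CPM. The 4 cells labelled Slc26a4+/- had 3441, 4731, 5032 and 5405 CPM, and the 2 cells labelled Slc26a4-/- had 3927 and 5866 CPM. All cells but 1 were thus high, and the genotypes overlapped. Above 500 CPM stood 16 of the 17 cells and no cell elsewhere, where the highest value was 461 CPM, and the cluster held 98.96% of all counts of the gene. In Slc26a4+/+ cells the mean of 5237 CPM (SD 3039 over 11 cells) exceeded that of the next cluster, the blood-gene cluster at 11.5 CPM, by 8.71 on the log2 scale. Over Slc26a4+/+ the log2 ratio was -0.17 in Slc26a4+/- and -0.10 in Slc26a4-/- cells. Of the counts of the gene in this cluster, 75.9% were assigned to its transcript of 5165 bases and 22.6% to a coding transcript of 715 bases.

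The same cells often held Slc26a4 as well. At least 10 counts of both genes were found in 8 of the 17 cells, against 3 of the 69 pendrin cells. Slc26a4 ranged from 0 to 842 CPM with a median of 362 CPM in the 11 Slc26a4+/+ cells, and 8 of these had at least 10 counts. The 4 cells labelled Slc26a4+/- had 0.815, 1.04, 2.38 and 270 CPM. Both cells labelled Slc26a4-/- had no count, in libraries of 403492 and 4591725 counts, which allows up to 0.601 CPM over the pair. Of the 11 Slc26a4+/+ cells 3 also had no count, and 1 of the 2 cells labelled Slc26a4-/- came from run date 1, which held no Slc26a4+/+ cell of this cluster. The 1 cell low in Slc26a7, with 37.0 CPM, had the highest Slc26a4 of the cluster at 842 CPM, from 216246 counts in all. Crhbp, which encodes a binding protein of corticotropin-releasing hormone, averaged 13344 CPM over the 17 cells and at most 27.2 CPM in any other cluster, and Vmo1, an egg-envelope homologue, averaged 8279 CPM. Both helped to form the cluster and are given as its description.

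**Figure D3:**
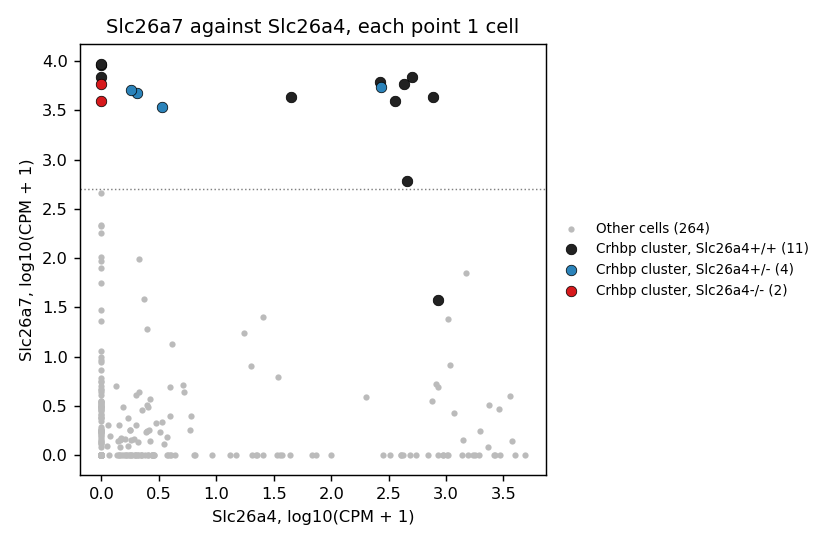
Slc26a7 (vertical) against Slc26a4 (horizontal) in each cell, both as log10 of CPM + 1, with Crhbp cluster cells coloured by genotype, other cells grey and a dotted line at 500 CPM of Slc26a7. Of the Crhbp cluster, 16 cells lie above the line at Slc26a4 values from 0 to 773 CPM, and no other cell does.

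Slc26a2 was the member found in the widest range of cells. Slc26a4+/+ means were 147.3 CPM in MC-like, 112.7 CPM in RC-like, 106.2 CPM in Crhbp cluster, 81.8 CPM in SC-like, 45.9 CPM in IMC-like and 25.4 CPM in blood-gene cluster cells, and every SD over cells was larger than its mean. The order of neighbours is therefore not fixed. Medians were far lower, at 8.59 CPM (MC-like) and 0.345 CPM (IMC-like), since 7 of 14 and 14 of 55 cells reached 10 counts. In pendrin cells the mean was 94.5 CPM in Slc26a4+/+, 1.43 CPM in Slc26a4+/- and 91.3 CPM in Slc26a4-/- cells. The level of 10 counts was reached by 14 of 39, 0 of 8 (exact 95% interval 0 to 36.9%) and 7 of 22 of these cells. Within run date 4 the counts were 3 of 8, 0 of 8 and 4 of 7 cells. The low Slc26a4+/- value thus comes from 8 cells of 1 run date, and their IMC-like neighbours of the same label had a mean of 41.9 CPM with 8 of 22 cells at 10 counts.

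Slc26a5 (prestin, minus strand, chr5:21810655-21865604) was found in nearly every cell of run date 1 and in few cells of the other run dates. At least 1 count was found in 49 of 53 cells of run date 1 (92.5%, exact 95% interval 81.8 to 97.9%), in 0 of 72 cells of run date 2 (0 to 4.99%), in 1 of 75 of run date 3 (1.33%) and in 6 of 81 of run date 4 (7.41%). In run date 1 the median was 25.6 CPM, or 5 counts. After thinning to 100000 counts the shares were 22 of 35, 0 of 71, 0 of 74 and 3 of 81 cells, so the shares did not follow the depth of the run dates. The highest mean by cell group, 213.8 CPM in Slc26a4+/+ cells of the blood-gene cluster, came from 35 cells of run date 1 at a mean of 324 CPM and a median of 48.1 CPM, while the other 18 had no count. Of that sum 75.1% lay in 1 cell with 8509 CPM, and without it, an omission chosen after seeing the data, the means were 54.3 CPM over the cluster and 82.99 CPM in its run date 1 cells. Without run date 1, chosen after seeing the data, the Slc26a4+/+ mean fell to 0.405 CPM in SC-like cells and to 0 in RC-like, IMC-like, MC-like and blood-gene cluster cells.

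The hair cell genes moved with it. Of 10 hair cell genes, 9 were found in a larger share of cells in run date 1 than in any other run date, and Slc17a8, the vesicular glutamate transporter of inner hair cells, was not. Ocm (oncomodulin, a calcium buffer of outer hair cells) was found in 94.3%, 8.33%, 21.3% and 56.8% of cells of run dates 1 to 4, and Pou4f3, a hair cell transcription factor, in 79.2%, 0%, 0% and 3.70%. The summed level of the 10 genes had a median of 73.9 CPM in run date 1 (range 0.878 to 7730 CPM) and of 0.479, 1.03 and 2.44 CPM in run dates 2 to 4, and the cells at 0 numbered 0, 35, 29 and 10. By the study's methods hair cells were also profiled, in its first batch. The methods name no run date, so it is only inferred here that hair cell libraries shared run date 1, the earliest. The part of hair cell RNA in the counts of Slc26a5 was not tested. Outside run date 1 at least 10 counts of Slc26a5 were found in 4 cells, all of them pendrin cells. One of these was Slc26a4+/+, 2 were labelled Slc26a4+/- and 1 was labelled Slc26a4-/-.

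**Figure D4:**
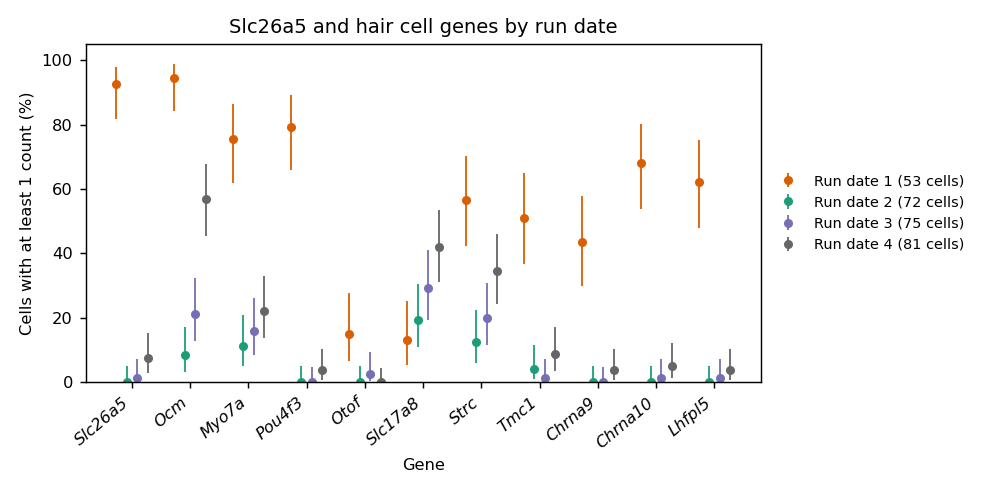
Percentage of cells with at least 1 count of Slc26a5 and of each of 10 hair cell genes (horizontal axis) in each run date (colour), with exact 95% binomial intervals. In run date 1 Slc26a5 stands at 92.5% and Ocm at 94.3%, and Slc26a5 stands at 0%, 1.33% and 7.41% in run dates 2 to 4.

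The other 6 members were sparse. Slc26a1, a sulfate and oxalate transporter, reached 10 counts in 17 cells, of which 14 were IMC-like, where the Slc26a4+/+ mean was 21.2 CPM with a highest value of 408 CPM and a median of 0. Slc26a1 overlaps Idua on the opposite strand and the kit does not mark strand, so reads of the overlap cannot be told apart. Of the 17 cells, 9 also had 10 counts of Idua. Slc26a8, known from sperm, reached 10 counts in 6 of 55 Slc26a4+/+, 7 of 22 Slc26a4+/- and 6 of 35 Slc26a4-/- IMC-like cells, and 73.02% of its level lay in the shorter of its 2 coding transcripts. Slc26a11, a sulfate transporter of many tissues, had Slc26a4+/+ means of 61.9 CPM in the Crhbp cluster and 32.98 CPM in the blood-gene cluster, but 1 cell held 89.97% and 70.2% of these sums. Slc26a6, an oxalate and chloride exchanger of gut and kidney, reached 10 counts in 11 cells. Slc26a3, the chloride exchanger of the colon, totalled 1154 counts, of which at least 10 lay in each of 25 cells, but all of its counts were assigned to retained-intron transcripts and none to its 2 coding transcripts. It lies 45909 bases from Slc26a4 on the same chromosome. Slc26a9, a chloride transporter of airway and stomach, reached 10 counts in 1 cell.

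Signs of compensation were looked for as a higher mean in cells labelled Slc26a4-/- than in Slc26a4+/+ cells of the same type. A member was counted where its mean CPM + 1 differed by at least 2-fold and its mean reached 10 CPM in either genotype. In pendrin cells 3 members reached that level and 1 was past 2-fold, while 37.7% of 10367 genes were (15.5% higher and 22.2% lower). The 3 were Slc26a2 at 91.3 against 94.5 CPM (log2 ratio -0.05), Slc26a4 (-0.29) and Slc26a7 at 10.6 against 4.56 CPM (1.06). The Slc26a2 value joined opposite directions, 1.12 in SC-like cells (178.6 against 81.8 CPM) and -1.84 in RC-like cells (30.8 against 112.7 CPM). Without the highest cell, an omission chosen after seeing the data, these were 0.70 and -0.97. In pendrin cells Slc26a2 gave 6.77 within run date 2 (107.8 against 0 CPM, so the pseudocount sets it) and -0.08 within run date 4. In IMC-like cells 5 members reached the level and 3 were past 2-fold, while 29.5% of 9585 genes were (11.5% higher and 17.9% lower). Slc26a7 was higher at 18.7 against 3.36 CPM (2.18). Slc26a1 was lower at 9.43 against 21.2 CPM (-1.09), and Slc26a8 at 4.40 against 10.3 CPM (-1.06). The median log2 ratio of the members that reached 10 CPM, with Slc26a4 among them in pendrin cells, was -0.05 in pendrin cells. It was 0.06 in IMC-like cells, beside -0.13 and -0.14 over all genes.

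Each of the 4 differences past 2-fold counted in pendrin and IMC-like cells fell below 2-fold or turned its direction without 1 cell. This omission was chosen after seeing the data. A pendrin cell labelled Slc26a4-/- with 210 CPM held 89.9% of the Slc26a7 sum, and without it the mean was 1.13 CPM and the log2 ratio -1.39. An IMC-like cell labelled Slc26a4-/- with 461 CPM held 70.4%, and without it the log2 ratio of Slc26a7 fell to 0.62. Without the highest Slc26a4+/+ cell the log2 ratio of Slc26a1 was -0.53 and that of Slc26a8 was 0.26. By that count 0 of 3 members stayed in pendrin cells and 0 of 5 in IMC-like cells. Of all genes 15.6% and 14.1% stayed past 2-fold after the same omission. So few members cannot set the family apart from these shares. Within run dates the directions also split, since Slc26a7 in IMC-like cells gave 4.45 in run date 2 (28.3 against 0.342 CPM) and -2.78 in run date 4, where neither mean reached 10 CPM. Slc26a2 in IMC-like cells gave 5.43 in run date 2, from 60.7 CPM in 23 cells against 0.427 CPM in 10 cells, and 0.35 in run date 4. One cell with 1012 CPM held 72.4% of the first sum, and without it the mean was 17.5 CPM and the log2 ratio 3.70. In run date 2 alone 2 of 3 members that reached 10 CPM in pendrin cells were higher by 2-fold, beside 55.8% of all genes, and in run date 4 alone 2 of 4, beside 28.5%. In IMC-like cells these were 2 of 4 members, beside 28.9%, and 1 of 3, beside 24.7%. The 2 in pendrin cells of run date 4 were Slc26a5 at 10.6 against 0 CPM and Slc26a11 at 26.2 against 11.5 CPM. Slc26a5 was found there in 1 cell, with 74.1 CPM, so this cell and the pseudocount set its ratio. In both cell groups 2 members reached 10 CPM in both run dates and 0 of them were higher in both, beside 16.1% of 8126 genes in pendrin cells and 8.97% of 8229 in IMC-like cells. They were Slc26a2 and Slc26a4 in pendrin cells, and Slc26a2 and Slc26a11 in IMC-like cells. Slc26a4 is the gene of the genotypes itself, so Slc26a2 was the only other member compared in this way in pendrin cells. Slc26a4 was also among the 3 and the 4 members of pendrin cells above.

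**Figure D5:**
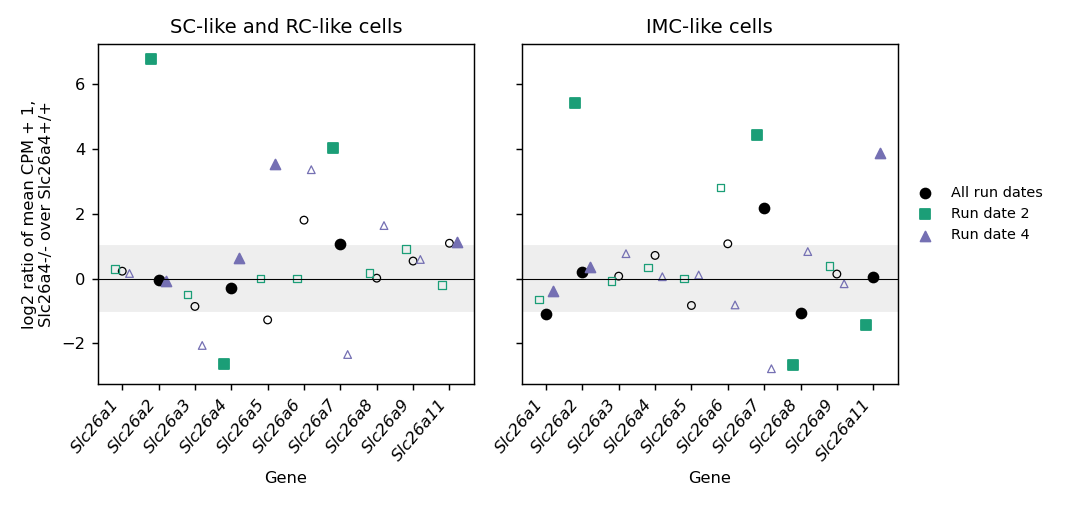
log2 ratio of mean CPM + 1 of each SLC26 gene, Slc26a4-/- over Slc26a4+/+, in pendrin cells (left) and IMC-like cells (right), over all run dates (circles), within run date 2 (squares) and within run date 4 (triangles). Filled symbols reached 10 CPM in either genotype, the grey band spans less than 2-fold, and no gene has both the square and the triangle filled above the band.

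Cells labelled Slc26a4+/- were compared with the same Slc26a4+/+ cells. In pendrin cells 3 members reached 10 CPM and 2 were past 2-fold, while 47.3% of 10425 genes were. Slc26a2 was lower by a log2 ratio of -5.30, by -4.64 within run date 4 and by -4.94 without the highest Slc26a4+/+ cell. Slc26a5 was higher at 26.97 against 9.59 CPM (1.40), a difference that became -0.05 without the Slc26a4+/- cell of 151.2 CPM. In IMC-like cells 4 members reached 10 CPM and none was past 2-fold, while 30.7% of 9529 genes were. Within run date 4, which held every pendrin and IMC-like cell labelled Slc26a4+/-, more members were past 2-fold. In pendrin cells these were 4 of 4, while 56.5% of 10079 genes were, with Slc26a4 at -1.13, Slc26a11 at -1.11 and Slc26a5 at 4.81 beside Slc26a2. In IMC-like cells these were 2 of 3, while 44.1% of 9195 genes were, with Slc26a1 at -1.07 and Slc26a11 at 3.75, and Slc26a2 at 0.46 was not. The Slc26a4+/+ cells had no count of Slc26a5 or Slc26a11 in these 2 higher cases, so both ratios depend on the pseudocount of 1 CPM.

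Bicarbonate transporters and regulators of pendrin were taken from lists. Of 10 SLC4 genes, which encode bicarbonate transporters, 5 reached 10 CPM in pendrin cells, of which 1 was higher and 2 were lower by 2-fold in cells labelled Slc26a4-/-, beside 15.5% higher and 22.2% lower over all genes. Slc4a2, the anion exchanger of basolateral membranes, was lower at 68.9 against 161.8 CPM (log2 ratio -1.22), with -2.17 in run date 2 and -0.47 in run date 4. Slc4a11 was lower at 19.5 against 63.8 CPM and Slc4a10 higher at 27.5 against 0.0422 CPM, with 10 counts in 1 of 22 cells. In IMC-like cells 5 reached 10 CPM and 2 were higher, beside 11.5% of all genes. Slc4a8, a sodium-driven chloride and bicarbonate exchanger, was at 467 against 187.4 CPM (1.31), with 1.05 in run date 2 and 1.48 in run date 4, and Slc4a11 at 56.4 against 14.0 CPM (1.93). The median log2 ratio of the 5 SLC4 genes that reached 10 CPM was 0.72 in pendrin cells and 0.52 in IMC-like cells. Over all genes it was -0.13 and -0.14. No values without the highest cell are given for the SLC4 genes.

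Of 7 regulators and partners of pendrin, 6 reached 10 CPM in pendrin cells, with 3 higher and none lower, beside 15.5% and 22.2% of all genes. These were Kcnj10, the potassium channel of intermediate cells, at 358 against 133.7 CPM (1.41), Epha2 at 30.3 against 11.2 CPM (1.37) and Iqgap1 at 1357 against 634 CPM (1.10). Within run dates 2 and 4 the log2 ratios of Kcnj10 were 0.36 and 2.79 and those of Iqgap1 were 1.19 and 0.27, so neither was past 2-fold in both, and those of Epha2 were 5.45 and -1.17. The median over all genes in pendrin cells was 1.88 and 0.015 in the same order. No values without the highest cell are given for these regulators and partners. In IMC-like cells 5 reached 10 CPM and none was past 2-fold, beside 29.5% of all genes. Foxi1, the forkhead factor that drives Slc26a4 in the endolymphatic sac and kidney, was listed at 0 in every cell.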

How the data were processed

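Single-cell libraries of stria vascularis cells were made with Smart-Seq2 and Nextera XT, which does not mark strand. Reads were pseudo-aligned with kallisto to the GRCm38 (mm10) transcriptome, and the authors deposited estimated counts per gene as a whole-number table and, per cell, estimated counts and TPM per transcript. The kallisto version is not given in the sources used here. The gene table has 298 columns, of which 281 matched a sample and 17 were not used. TPM were summed per gene. Counts were scaled to CPM, and ratios were taken as log2 of mean CPM + 1.

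Cells were clustered with Seurat 5.3.0 in R 4.3.3 from 2000 variable genes, with 10 principal components and resolution 0.8. The family, the listed genes and every gene of the study's differential expression lists, 103 of the variable genes, were left out. Hair cell genes were not left out as a set. Clusters were named where at least 80% of cells scored highest for a type. The smallest depth was 1848 counts and the cells were all kept; no doublet caller was run. The labels name no mouse, so each genotype is 1 sample and no test was made. Shares carry exact Clopper-Pearson 95% intervals, which cover counting error only. Past 2-fold means a log2 ratio of at least 1 in size with a mean of 10 CPM in either genotype. The text names the 10 members, the listed genes and, for members with 10 counts in at least 20 Slc26a4+/+ cells, the 5 genes of highest correlation where it reached 0.6. Members and lists were chosen with earlier results of these data known. Alternatives were TPM, mean log2 values, thinning to 100000 counts, a pseudocount of 10 CPM, no minimum, a cell filter, resolution 1.2, cell types by marker score, single run dates and TMM scaling with edgeR 4.0.16. The scripts were tested on simulated data. Promoters came from RefSeq and gene positions from GENCODE. A list of chloride channel and uptake genes is not reported here.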

Additional observations from a re-analysis of the deposited data

Results flagged for a closer look

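Slc26a11, a sulfate transporter, had log2 ratios of opposite sign in IMC-like cells of the 2 run dates that held both genotypes. In run date 2 the mean was 14.8 CPM in 23 cells labelled Slc26a4-/- and 41.6 CPM in 10 Slc26a4+/+ cells, a log2 ratio of -1.43. One Slc26a4+/+ cell with 415.2 CPM held 99.9% of that sum and the median was 0, and without this cell, an omission chosen after seeing the data, the mean was 0.039 CPM and the log2 ratio turned to 3.92. In run date 4 it was 13.6 CPM in 12 cells labelled Slc26a4-/-, while the 7 Slc26a4+/+ cells had no count, and the log2 ratio of 3.86 there depends on the pseudocount of 1 CPM. The difference between the run dates was not tested.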

How the results depend on the processing

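No paired analysis was possible because the cell numbers in the labels run on across genotypes and no comparison rests on a test. The labels name no mouse, most members were seen in few cells, and a run date held few cells of 1 type and genotype, so a cell could set a mean. The log2 ratio of Slc26a7 in the Crhbp cluster for Slc26a4-/- over Slc26a4+/+ stayed between -0.50 and 0.63. The log2 excess of Slc26a4 in pendrin over IMC-like cells was 6.29 with mean log2 values, 6.48 with a pseudocount of 10 CPM and 7.63 with cell types by marker score, and that of Slc26a7 in its cluster 10.07 with mean log2 values. Slc26a4 in pendrin cells, Slc26a4-/- over Slc26a4+/+, was -2.65 within run date 2 and 1.07 without it.

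The number of members past 2-fold in pendrin cells, 1, was 0 with TPM, thinning, a pseudocount of 10 CPM or without the highest cell, 2 without run date 2 or within run date 4, 3 without run date 4 or within run date 2, and 4 with no minimum. In IMC-like cells the number, 3, was 0 with mean log2 values, without run date 2 or without the highest cell, and 1 with thinning, a pseudocount of 10 CPM, TMM scaling or within run date 4. The omission of the highest cell was chosen after seeing the data.

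Slc26a5 in IMC-like cells, Slc26a4-/- over Slc26a4+/+, had a log2 ratio of -0.83, against -0.53 with TPM, -0.26 with mean log2 values, -0.93 with thinning, -0.11 with a pseudocount of 10 CPM, -4.40 with cell types by marker score, 0.039, -1.54 and -0.96 without run dates 1, 3 and 4, and 0 and 0.11 within run dates 2 and 4. The means were 0.0272 against 0.827 CPM, far below 10 CPM. All Slc26a4+/+ counts lay in 6 cells of run date 1, which held no IMC-like cell labelled Slc26a4-/-.

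The following log2 ratios turned sign. For Slc26a4-/- over Slc26a4+/+, Slc26a7 in pendrin cells was -2.08 without run date 2, -0.085 by marker score, -2.34 within run date 4 and -1.39 without the highest cell. In RC-like cells it was -0.32 with mean log2 values, -2.73, -5.15, -2.14 and -2.28 under the same 4 settings. In IMC-like cells it was -1.82 without run date 2 and -2.78 within run date 4. Slc26a2 in RC-like cells was 1.29 within run date 2 and 1.48 within run date 4, against -1.84 over all run dates. Slc26a1 in IMC-like cells was 0.063 without run date 1, and Slc26a8 there was 0.11 with mean log2 values, 0.83 within run date 4 and 0.26 without the highest cell. Slc26a11 there, within run date 2, was 3.92 without the highest cell. For Slc26a4+/- over Slc26a4+/+, Slc26a5 was -3.32 by marker score and -0.050 without the highest cell in pendrin cells, -0.087 without run date 3, -4.49 by marker score and -3.73 without the highest cell in SC-like cells, and -2.64 without the highest cell in RC-like cells. The cause was not tested.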
